A study of Homo sapiens with 10 samples.

Results

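The proteasome genes of C4-2 cells were examined on 10 Illumina whole-genome expression BeadChips. C4-2 is an established human prostate cancer cell line, and the study asked how ARRB1 (β-arrestin 1), an adaptor protein that is also found in the nucleus, alters gene expression in it. The members were all genes whose symbol in the probe annotation begins with PSMA, PSMB, PSMC, PSMD, PSME, PSMF or PSMG followed by a number, pseudogenes left out. This gave 46 symbols on 71 probes among 18664 named genes, and 43 of the 46 encode proteasome subunits, activators, an inhibitor or assembly chaperones. The other 3 (PSMC3IP, PSME3IP1 and PSMD6-AS2) encode none of these and are given apart.

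There were 4 groups of untreated cells. The nucARRB1 group (2 arrays) stably overexpressed an ARRB1-GFP fusion that carries a nuclear localisation signal, and the wtARRB1 group (2 arrays) stably overexpressed wild-type ARRB1 fused to GFP. The GFP group (3 arrays) carried the empty GFP vector, and the parental group (3 arrays) carried no construct. By the labels, the 3 groups of stable lines were kept in G418 at 0.8 mg/ml, whereas the methods give a lower concentration for selecting the lines. All groups grew in RPMI with 10% FBS. GFP cells are therefore the control that shares the vector and the selection. The design calls the arrays of a group biological replicates. The sources used here do not say whether a stable line is 1 clone or a pool, so line and construct cannot be told apart.

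The proteasome degrades proteins that carry ubiquitin chains. Its 20S core is a barrel of outer alpha rings and inner beta rings, and the proteolytic sites lie inside, on PSMB5, PSMB6 and PSMB7. The 19S cap recognises and unfolds substrates. Its base holds a ring of ATPases (PSMC genes) with the scaffold subunits PSMD1 and PSMD2 and the ubiquitin receptor PSMD4, and its lid holds the deubiquitylase PSMD14. Under interferon gamma, PSMB8, PSMB9 and PSMB10 replace PSMB5, PSMB6 and PSMB7 and form the immunoproteasome, which is known for trimming antigenic peptides. PSME genes encode other caps that open the core, PSMF1 an inhibitor, and PSMG genes chaperones that build the core.

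All values are quantile-normalised log2 probe intensities, and every array had a median of 6.30. Arrays of 1 group correlated at r of 0.982 to 0.992 over all probes, and arrays of different groups at 0.960 to 0.989. Of 10 luminal prostate markers 8 were measured; EPCAM (mean 12.06), KRT18 (12.21), TMPRSS2 (10.31) and FOLH1 (9.89) were bright, whereas KLK3 stood at 6.59, near the array median. Of 7 leukocyte markers measured 0 were called against GFP in either ARRB1 group (limma; at an unadjusted p under 0.05, 1 in nucARRB1 and 0 in wtARRB1), as were 0 of 5 fibroblast markers (0 and 0). Of the 8 luminal markers 1 was called higher in each ARRB1 group (TMPRSS2 in nucARRB1, FOLH1 in wtARRB1), with median log2 changes of 0.11 and 0.53. At an unadjusted p under 0.05 (limma), 4 luminal markers were higher and 1 lower in nucARRB1, and 5 and 1 in wtARRB1. At that cut 2469 of all 18664 genes were higher and 2700 lower in nucARRB1, and 2383 and 2562 in wtARRB1. Every count at this cut against GFP, here and below, is to be read beside these. Of 3 endothelial markers VWF was called higher in wtARRB1 (0.57, adjusted p = 0.00716). The part of these markers in the proteasome values was not tested. The ARRB1 probe did not show the overexpression (8.29 and 7.70 in nucARRB1, 7.71 and 7.64 in wtARRB1, against 8.12, 8.58 and 8.61 in GFP cells); these values do not show what the labels state. The methods describe a humanised ARRB1 sequence, and whether the probe detects it was not tested, so the groups are called as labelled. Among the proteasome genes 32 of 43 had a mean above 9, and 6 had a mean below 7.

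In nucARRB1 cells genes of the 19S base, the alternative caps and the core chaperones were called lower, and no gene of the alpha ring or the lid was, which does not show that these parts differed. Of the 43 genes 12 were lower and 2 higher in nucARRB1 cells than in GFP cells (limma, Benjamini-Hochberg over all probes, false discovery rate of 1%). The background was 5.89% of all 18664 genes lower and 4.97% higher. Bright genes were called more often: of the 3202 genes with a mean above 9, 18% were lower and 13.3% higher, and the 32 proteasome genes among them had 10 lower and 2 higher. The 12 that fell were PSMD1, PSMD2, PSMD4, PSMC1 and PSMC3 of the base, PSMB6 and PSMB10 of the core, PSME2, PSME3 and PSME4 of the caps, and PSMG1 and PSMG3 of the chaperones. The median log2 change of the 43 was -0.15, beside -0.0050 over all genes. Without nucARRB1 replicate 1 the count of lower genes was 4. With each array scaled to a common median in place of quantile normalisation it was 11, and none was higher, while all genes split into 512 higher and 1316 lower in place of 927 and 1100. That scaling called 2 of the 6 lid genes lower and none of the 13 constitutive core genes.

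**Figure D1:**
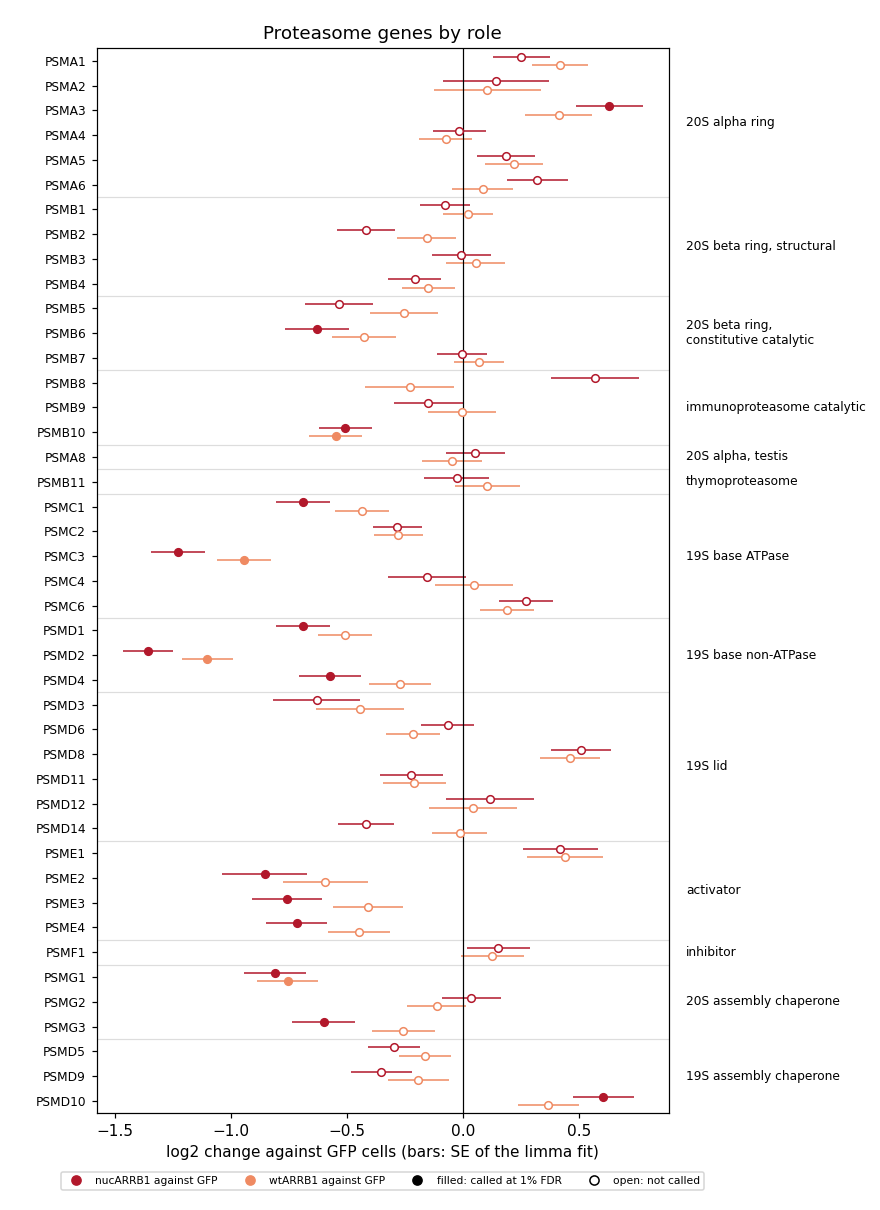
Log2 change of the 43 proteasome genes against GFP cells, by role, in nucARRB1 cells and in wtARRB1 cells (points; bars are standard errors of the fit; filled points passed the 1% threshold). The points farthest to the left are PSMD2 at -1.36 and PSMC3 at -1.23 in nucARRB1 cells, and both were also filled in wtARRB1 cells.

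Of the 43 genes PSMD2 of the 19S base fell most in nucARRB1 and in wtARRB1. PSMD2, the scaffold subunit that binds ubiquitin-like shuttle proteins, stood at 9.31 and 9.30 on the nucARRB1 arrays and at 9.56 and 9.56 on the wtARRB1 arrays, against 10.67, 10.58 and 10.73 on the GFP arrays and 10.25, 10.38 and 10.50 on the parental arrays. All 4 ARRB1 arrays lay below all 6 control arrays, as they did for 12 of the 43 genes and for 8.11% of all genes. The log2 change of PSMD2 from GFP was -1.36 ± 0.11 in nucARRB1 (SE, 0.390-fold, adjusted p = 1.36e-06) and -1.10 ± 0.11 in wtARRB1 (0.466-fold, adjusted p = 1.25e-05). The other large scaffold subunit, PSMD1, stood at 9.34 and 9.64 in nucARRB1 and 9.68 and 9.66 in wtARRB1, against 10.10, 10.30 and 10.13 in GFP and 10.34, 10.45 and 10.35 in parental cells. Again no ARRB1 array reached a control array. PSMD1 fell by 0.69 ± 0.12 in nucARRB1 (adjusted p = 0.000785), a call that was lost without nucARRB1 replicate 1 (adjusted p = 0.0232), and its log2 change in wtARRB1 was -0.51 ± 0.12 (adjusted p = 0.0101, just outside the threshold). PSMD4, which captures ubiquitin chains, fell by 0.57 ± 0.13 in nucARRB1 (adjusted p = 0.00951) and changed by -0.27 ± 0.13 in wtARRB1 (adjusted p = 0.340); its second probe fell by 0.71 ± 0.15 in nucARRB1 (adjusted p = 0.00401). Among the refits that left out 1 array, the call of the first probe held without nucARRB1 replicate 2 and was lost without any 1 of the other 9 (adjusted p = 0.252 without nucARRB1 replicate 1, where the change was -0.33). Of the 3 measured non-ATPase subunits 3 were called lower in nucARRB1 cells, but 1 without nucARRB1 replicate 1, and 1 was called lower in wtARRB1 cells.

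The ATPases of the base did not move together. PSMC3 stood at 9.75 and 10.11 in nucARRB1 and at 10.25 and 10.17 in wtARRB1, against 11.22, 11.16 and 11.09 in GFP and 10.75, 10.73 and 10.76 in parental cells. The ARRB1 arrays lay below every control array, and the GFP arrays above the parental ones. PSMC3 fell by 1.23 ± 0.12 in nucARRB1 (0.427-fold, adjusted p = 5.35e-06) and by 0.95 ± 0.12 in wtARRB1 (0.519-fold, adjusted p = 8.29e-05). PSMC1 stood at 12.46 and 12.33 in nucARRB1 and 12.62 and 12.67 in wtARRB1, against 12.93, 13.13 and 13.18 in GFP and 12.97, 13.24 and 13.08 in parental cells. It fell by 0.69 ± 0.12 in nucARRB1 (adjusted p = 0.000848), and its log2 change in wtARRB1 was -0.43 ± 0.12 (adjusted p = 0.0288). The nucARRB1 call of PSMC1 was lost with median scaling and without nucARRB1 replicate 2, which left 1 array in that group. The other ATPases measured, PSMC2, PSMC4 and PSMC6, were not called, with log2 changes of -0.28, -0.15 and 0.27 in nucARRB1. The paralogous ATPases thus ranged from -1.23 to 0.27 on the log2 scale.

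The lid held no called gene in either comparison with GFP after quantile normalisation (limma, 0 of 6). With median scaling 2 of the 6 were called lower in nucARRB1. After quantile normalisation, at an unadjusted p under 0.05, 2469 of all 18664 genes were higher and 2700 lower in nucARRB1. Of the 6 lid genes 1 was higher and 2 were lower there. In wtARRB1 1 of the 6 was higher and 1 lower, beside 2383 and 2562 of all genes. PSMD8, a lid subunit, was the one that was higher: 11.03 and 10.79 in nucARRB1 and 10.82 and 10.91 in wtARRB1, against 10.23, 10.45 and 10.52 in GFP and 10.46, 10.14 and 10.21 in parental cells. All 4 ARRB1 arrays lay above all 6 control arrays, as they did for 2 of the 43 genes and for 6.29% of all genes. With both ARRB1 groups set against both control groups PSMD8 rose by 0.55 ± 0.09 (1.47-fold, adjusted p = 0.000465), and with median scaling this call was lost. PSMD14, which removes the ubiquitin chain from a substrate, had a log2 change of -0.42 ± 0.12 in nucARRB1 (adjusted p = 0.0379) and of -0.01 ± 0.12 in wtARRB1 (adjusted p = 0.982). PSMD3, with a change of -0.63 ± 0.19 in nucARRB1, was not called either (adjusted p = 0.0477), and PSMD6, PSMD11 and PSMD12 changed by -0.07, -0.22 and 0.12.

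**Figure D2:**
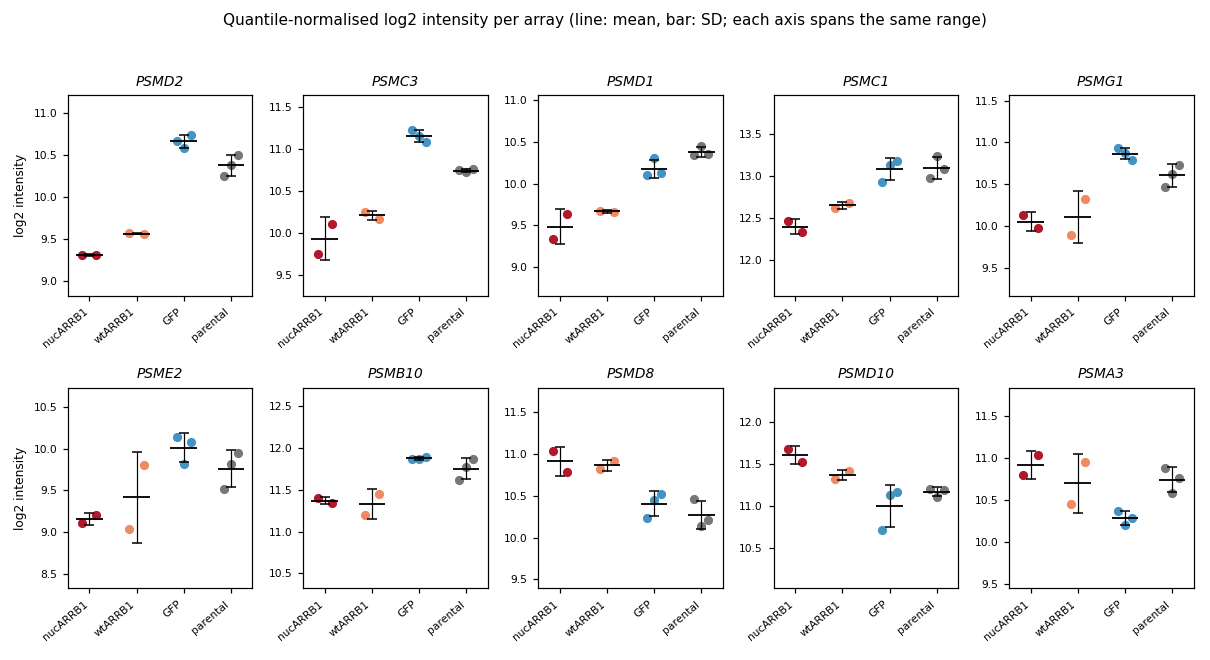
Quantile-normalised log2 intensity on every array for 10 proteasome genes (points; lines are group means and bars the SD; every axis spans the same log2 range). PSMD2, PSMC3, PSMD1, PSMC1, PSMG1 and PSMB10 lie lower on all 4 ARRB1 arrays than on all 6 control arrays, PSMD8 and PSMD10 lie higher, and PSME2 and PSMA3 overlap with the parental arrays. Of all genes 8.11% lie lower on all 4 ARRB1 arrays in this way and 6.29% higher.

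Promoter sequence is shown for 4 of the genes that fell and for PSMB3, a structural beta subunit that was not called (log2 change -0.01 ± 0.13 in nucARRB1 and 0.05 ± 0.13 in wtARRB1). The windows run from 250 bases before to 50 bases after the annotated start, 5′ to 3′ on the strand of the gene, and come from RefSeq on GRCh38.p14. Capitals mark TGACNNNGC, the core letters of the antioxidant response element that NFE2L1 and its relatives bind, and CCAAT, the box bound by NF-Y, each searched on both strands. No match of one overlapped a match of the other in the windows shown. PSMD2 has a further window, also without a match to either of these motifs, which is not printed. The windows lie at chr3:184298991-184299290 (plus strand) for PSMD2, chr11:47426390-47426689 (minus strand) for PSMC3, chr2:231056617-231056916 (plus strand) for PSMD1, chr21:39183402-39183701 (minus strand) for PSMG1 and chr17:38752491-38752790 (plus strand) for PSMB3.
PSMD2: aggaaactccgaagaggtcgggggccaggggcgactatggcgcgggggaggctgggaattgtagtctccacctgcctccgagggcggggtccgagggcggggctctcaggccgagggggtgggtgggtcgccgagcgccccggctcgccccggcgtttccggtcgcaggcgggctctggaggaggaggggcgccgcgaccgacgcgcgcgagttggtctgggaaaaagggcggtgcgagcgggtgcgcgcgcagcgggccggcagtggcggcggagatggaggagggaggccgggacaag
PSMC3: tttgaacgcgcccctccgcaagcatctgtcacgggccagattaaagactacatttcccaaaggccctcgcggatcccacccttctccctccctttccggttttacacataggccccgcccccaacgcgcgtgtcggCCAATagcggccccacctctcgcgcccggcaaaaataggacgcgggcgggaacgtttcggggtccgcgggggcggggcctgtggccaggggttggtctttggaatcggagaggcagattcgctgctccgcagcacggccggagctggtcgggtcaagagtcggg
PSMD1: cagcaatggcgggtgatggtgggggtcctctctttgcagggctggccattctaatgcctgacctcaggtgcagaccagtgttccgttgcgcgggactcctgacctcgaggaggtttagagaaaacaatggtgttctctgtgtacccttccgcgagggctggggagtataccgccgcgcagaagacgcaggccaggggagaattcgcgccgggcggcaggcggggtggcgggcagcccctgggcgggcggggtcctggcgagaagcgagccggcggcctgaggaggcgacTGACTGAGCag
PSMG1: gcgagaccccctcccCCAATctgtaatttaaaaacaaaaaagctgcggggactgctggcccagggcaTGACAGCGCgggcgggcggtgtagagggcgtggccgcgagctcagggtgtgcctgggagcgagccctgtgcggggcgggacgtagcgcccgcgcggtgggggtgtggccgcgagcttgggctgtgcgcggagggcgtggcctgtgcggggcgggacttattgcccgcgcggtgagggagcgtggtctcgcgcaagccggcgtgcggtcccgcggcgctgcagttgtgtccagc
PSMB3: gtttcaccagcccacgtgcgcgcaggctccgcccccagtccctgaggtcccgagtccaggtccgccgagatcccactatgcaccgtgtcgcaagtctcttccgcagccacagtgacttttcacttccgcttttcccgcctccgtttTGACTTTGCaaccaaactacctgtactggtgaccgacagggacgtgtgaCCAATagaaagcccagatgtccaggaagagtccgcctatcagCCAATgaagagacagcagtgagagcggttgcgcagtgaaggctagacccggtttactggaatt

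Of the 43 genes 38 had a promoter window in the table. TGACNNNGC occurred in 14 of the 38 (36.8%), beside 16.1% of all 27305 genes with a window, and CCAAT in 18 of the 38 (47.4%), beside 39.7%. Of the 9 genes with a window that were called lower in nucARRB1, 4 held TGACNNNGC (PSMD1, PSME2, PSME4 and PSMG1), as did 10 of the other 29. CCAAT occurred in 3 of the 9 and in 15 of the 29. Neither PSMD2 nor PSMC3, which fell most, held TGACNNNGC, whereas PSMB3 held both motifs. CGGAAG, the core letters bound by ETS factors, occurred in 21 of the 38 (55.3%, beside 22.6% of all genes), in 3 of the 9 lower genes and in 18 of the other 29. A match is a description of letters, and binding was not measured here.

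In the core, the alpha ring had a median change of opposite sign to that of the 19S base. Of its 6 measured subunits 1 was higher and none lower in nucARRB1 (limma; at an unadjusted p under 0.05, 2 higher and 0 lower), and their median log2 change was 0.22 in nucARRB1 and 0.16 in wtARRB1, beside -0.63 and -0.36 for the 8 genes of the base. At that unadjusted p 2469 of all 18664 genes were higher and 2700 lower in nucARRB1. Between GFP and parental cells the alpha ring had a median of -0.11, with 5 of 6 genes negative. PSMA3 stood at 10.80 and 11.04 in nucARRB1 and 10.45 and 10.95 in wtARRB1, against 10.37, 10.21 and 10.28 in GFP and 10.88, 10.59 and 10.76 in parental cells. The nucARRB1 arrays lay above the GFP arrays, as for 19% of all genes, but overlapped with the parental ones. PSMA3 rose by 0.63 ± 0.14 against GFP (1.55-fold, adjusted p = 0.00827), and its log2 change against parental cells was 0.17 ± 0.14 (adjusted p = 0.714). That call was lost without any 1 of 7 arrays (both nucARRB1, all GFP, and parental replicates 2 and 3), with adjusted p up to 0.0858. The PSMA3 call was also lost with median scaling, with the mean over probes, with an intensity trend and with the replicate block. The dimmer probe of PSMA3 changed by 0.23 ± 0.16 in nucARRB1 and was not called (limma, adjusted p = 0.574). PSMA1 had changes of 0.25 and 0.42 in nucARRB1 and wtARRB1, PSMA6 of 0.32 and 0.08, and PSMA2, PSMA4 and PSMA5 of 0.14, -0.02 and 0.19 in nucARRB1. A dimmer probe of PSMA6 was called higher in nucARRB1 (log2 change 0.96 ± 0.17, adjusted p = 0.00121), unlike the brighter probe that stands for the gene here. In GFP against parental cells that dimmer probe changed by -0.53 ± 0.15 and was not called (limma, adjusted p = 0.294). A dimmer probe of PSMA1 was called higher in wtARRB1 (0.57 ± 0.13, adjusted p = 0.00867).

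Of the 4 structural beta subunits none was called against GFP (limma; in nucARRB1 0 higher and 1 lower at an unadjusted p under 0.05, in wtARRB1 0 and 0). PSMB1, PSMB3 and PSMB4 changed by -0.08, -0.01 and -0.21 in nucARRB1. PSMB2 stood at 10.92 and 11.35 in nucARRB1 and 11.34 and 11.46 in wtARRB1, against 11.53, 11.51 and 11.63 in GFP and 11.73, 11.87 and 11.86 in parental cells. PSMB2 was called lower in nucARRB1 against parental cells (-0.68 ± 0.13, adjusted p = 0.00274). It was also called with both ARRB1 groups set against both control groups (-0.42 ± 0.09, adjusted p = 0.00375), and this second call was lost without nucARRB1 replicate 1, wtARRB1 replicate 1, GFP replicate 3 or parental replicate 2 or 3 (adjusted p up to 0.0272).

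**Figure D3:**
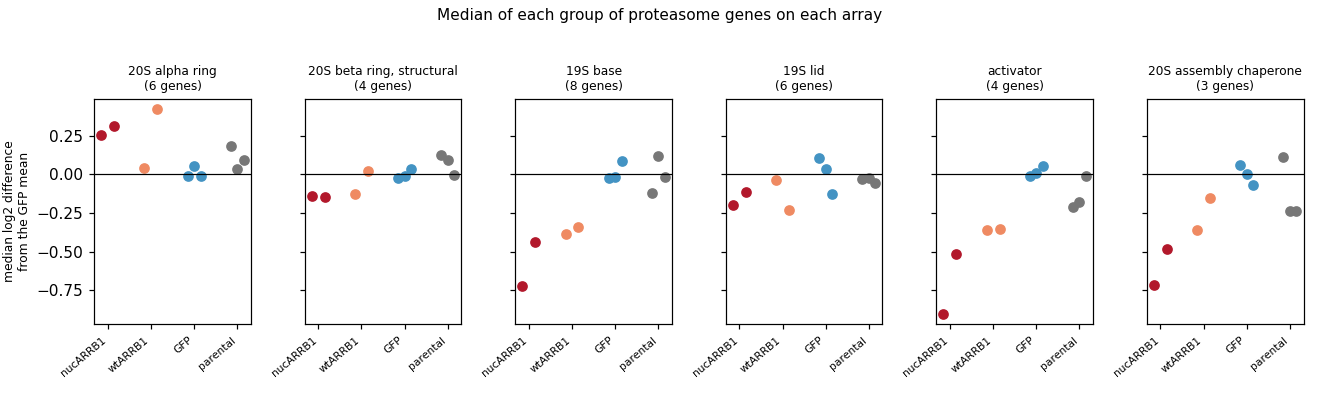
Median log2 difference from the GFP mean over the genes of 6 role groups, on every array (points, 2 or 3 arrays a group). The 19S base lies at -0.72 and -0.44 on the nucARRB1 arrays and at -0.39 and -0.34 on the wtARRB1 arrays, below every GFP and parental array, and the 20S alpha ring lies at 0.25 and 0.31 in nucARRB1 and 0.04 and 0.42 in wtARRB1, against 0.18, 0.04 and 0.09 in parental cells.

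The catalytic subunits were compared in the pairs that replace each other. PSMB6, the caspase-like site, stood at 12.46 and 12.94 in nucARRB1 and 12.97 and 12.84 in wtARRB1, against 13.24, 13.36 and 13.38 in GFP and 13.02, 13.31 and 13.23 in parental cells. It fell by 0.63 ± 0.14 in nucARRB1 (0.647-fold, adjusted p = 0.00620), a call lost without nucARRB1 replicate 1, any GFP array or parental replicate 3 (adjusted p up to 0.169), and changed by -0.43 ± 0.14 in wtARRB1 (adjusted p = 0.0779). PSMB5, the chymotrypsin-like site and the main target of bortezomib, stood at 10.52 and 10.92 in nucARRB1 and 10.91 and 11.09 in wtARRB1, against 11.48, 11.04 and 11.25 in GFP and 11.07, 11.15 and 11.33 in parental cells. Its change of -0.53 ± 0.15 in nucARRB1 missed the threshold (adjusted p = 0.0294), and in wtARRB1 it was -0.25 ± 0.15 (adjusted p = 0.465). PSMB7, the trypsin-like site, lay between 12.24 and 12.36 on the 4 ARRB1 arrays and between 12.21 and 12.52 on the 6 control arrays, with log2 changes of -0.0041 and 0.07. The constitutive sites therefore held 1 called gene of 3 in nucARRB1 and 0 of 3 in wtARRB1 (limma; 1 lower at an unadjusted p under 0.05). With median scaling the call of PSMB6 was lost, and 0 of 3 were called in nucARRB1.

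Of the immunoproteasome sites PSMB10 alone was bright and alone was called. PSMB10, which replaces PSMB7, stood at 11.40 and 11.34 in nucARRB1 and 11.20 and 11.45 in wtARRB1, against 11.87, 11.86 and 11.90 in GFP and 11.62, 11.77 and 11.86 in parental cells. All ARRB1 arrays lay below all control arrays. PSMB10 fell by 0.51 ± 0.11 in nucARRB1 (0.704-fold, adjusted p = 0.00744) and by 0.55 ± 0.11 in wtARRB1 (0.684-fold, adjusted p = 0.00505). The nucARRB1 call was lost without either nucARRB1 array, any GFP array or parental replicate 2 (adjusted p up to 0.0514), and the wtARRB1 call without wtARRB1 replicate 1 or any GFP array (adjusted p up to 0.0993). Both of these calls were also lost with an intensity trend and with the replicate block, and the nucARRB1 call with median scaling. With both ARRB1 groups against both control groups the change of PSMB10 was -0.47 ± 0.08 (adjusted p = 0.000657), and no refit that left out 1 array lost that call. PSMB8, which replaces PSMB5, was dim: 7.10 and 7.63 in nucARRB1 and 6.51 and 6.61 in wtARRB1, against 6.70, 6.93 and 6.76 in GFP and 7.05, 6.45 and 6.26 in parental cells. The nucARRB1 arrays were the highest of the 10. The change of PSMB8 was 0.57 ± 0.19 against GFP (adjusted p = 0.0849) and 0.80 ± 0.21 against wtARRB1 (adjusted p = 0.243), and none of its other 3 probes was called. These 3 changed by 0.33, 0.02 and -0.13 in nucARRB1 against GFP. PSMB9, which replaces PSMB6, lay between 6.04 and 6.45 on the ARRB1 arrays and between 6.06 and 6.54 on the control arrays, around the array median, and no change was detectable at this intensity.

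Within each array the immunoproteasome subunit was set against the constitutive subunit it replaces, and the 4 ARRB1 arrays against the 6 control arrays, by an exact two-sided permutation test over 210 arrangements with 3 pairs compared. Only changes in this difference are meaningful, since levels of different probes cannot be compared. PSMB10 minus PSMB7 was -0.90 ± 0.0045 in nucARRB1 (SD, n = 2) and -1.02 ± 0.20 in wtARRB1 (n = 2), against -0.40 ± 0.10 in GFP (n = 3) and -0.69 ± 0.08 in parental cells (n = 3). All 4 ARRB1 arrays lay below all 6 control arrays, with a difference of -0.41 (exact p = 0.00952, the smallest the design allows; adjusted p = 0.0286). Without either nucARRB1 array or wtARRB1 replicate 2 the adjusted p was 0.0714, and the exact p of 0.0238 was the smallest that 9 arrays with 3 of ARRB1 allow, while the difference stayed between -0.45 and -0.35 in all refits that left out 1 array. PSMB9 minus PSMB6 averaged -6.53 ± 0.15 in nucARRB1 and -6.59 ± 0.28 in wtARRB1, against -7.01 ± 0.31 in GFP and -6.94 ± 0.28 in parental cells. The difference was 0.42 (exact p = 0.0381, adjusted p = 0.0571), but PSMB9 lay at the array median in all groups, so that this value follows PSMB6 and says nothing of PSMB9. PSMB8 minus PSMB5 averaged -3.36 ± 0.09 in nucARRB1 but -4.44 ± 0.06 in wtARRB1, against -4.46 ± 0.34 in GFP and -4.60 ± 0.53 in parental cells (difference 0.63, exact p = 0.105, adjusted p = 0.105). Thus PSMB10 minus PSMB7 had the smallest adjusted p of the 3 pairs, and it would not pass the 1% rate used for the limma calls. For this pair all GFP arrays also lay above all parental arrays, whereas the test treats pooled arrays as exchangeable. Its p-value therefore does not allow for differences between the groups that were pooled.

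**Figure D4:**
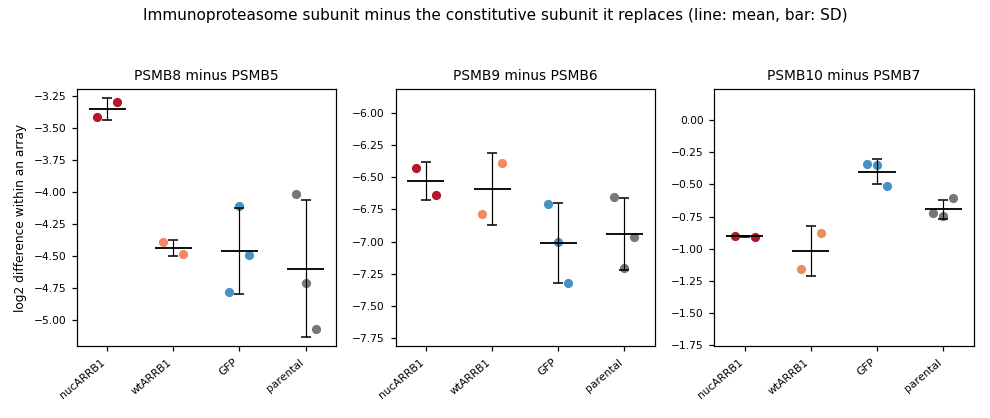
Log2 intensity of the immunoproteasome subunit minus that of the constitutive subunit it replaces, on every array (points; lines are group means and bars the SD; each axis spans the same log2 range). For PSMB10 minus PSMB7 the 4 ARRB1 arrays lie below the 6 control arrays, and for PSMB8 minus PSMB5 the 2 nucARRB1 arrays lie above the other 8.

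Genes of the interferon axis that act with the immunoproteasome were set beside PSMB10. Of 18 listed 15 were measured, and 4 were higher and 0 lower in each ARRB1 group against GFP (limma; at an unadjusted p under 0.05, 0 were lower in nucARRB1 and 1 in wtARRB1). The background was 4.97% higher in nucARRB1 and 4.26% in wtARRB1 over all genes, and 13.3% and 11.6% over the bright genes. B2M, the light chain of class I molecules, rose by 1.32 ± 0.17 in nucARRB1 (adjusted p = 9.41e-05) and 0.76 ± 0.17 in wtARRB1 (adjusted p = 0.00982). HLA-B, a class I heavy chain, rose by 0.87 and 0.83, and the interferon gamma receptor chains IFNGR1 and IFNGR2 by 1.02 and 0.82 in nucARRB1 and by 0.62 and 0.67 in wtARRB1. TAP1, the peptide transporter encoded beside PSMB9, changed by -0.16 and -0.25 and was not called, nor was IRF1, the factor that induces the immunoproteasome (0.05 and -0.05).

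The caps other than 19S fell in nucARRB1 cells with the exception of PSME1. PSME1 and PSME2 together form the interferon-inducible PA28 alpha-beta ring. PSME2 stood at 9.11 and 9.21 in nucARRB1 and 9.03 and 9.80 in wtARRB1, against 10.14, 9.81 and 10.09 in GFP and 9.51, 9.81 and 9.95 in parental cells. It fell by 0.86 ± 0.18 in nucARRB1 (0.553-fold, adjusted p = 0.00533), while its change in wtARRB1 was -0.59 ± 0.18 (adjusted p = 0.0621), where replicate 2 lay among the control arrays. The nucARRB1 call was lost without either nucARRB1 array, GFP replicate 1 or 3 or parental replicate 2 (adjusted p up to 0.0405). PSME1 stood at 12.18 and 12.04 in nucARRB1 and 11.89 and 12.37 in wtARRB1, against 11.66, 11.76 and 11.66 in GFP and 12.05, 11.44 and 11.73 in parental cells, with changes of 0.42 ± 0.16 (adjusted p = 0.153) and 0.44 ± 0.16 (adjusted p = 0.138). The partner genes of 1 ring thus had changes of opposite sign, of which only that of PSME2 was called.

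PSME3, the nuclear PA28 gamma, stood at 7.87 and 8.38 in nucARRB1 and 8.57 and 8.38 in wtARRB1, against 8.63, 8.95 and 9.07 in GFP and 8.74, 8.72 and 8.71 in parental cells. It fell by 0.76 ± 0.15 in nucARRB1 (0.591-fold, adjusted p = 0.00300), and its second probe also fell (-0.57 ± 0.13, adjusted p = 0.00870). The first call was lost without nucARRB1 replicate 1 or GFP replicate 2 or 3 (adjusted p up to 0.0825). PSME4 (PA200), which stimulates degradation of acetylated histones, stood at 8.71 and 9.07 in nucARRB1 and 9.21 and 9.11 in wtARRB1, against 9.62, 9.55 and 9.64 in GFP and 9.33, 9.63 and 9.70 in parental cells. It lay lower on every ARRB1 array than on every control array and fell by 0.72 ± 0.13 in nucARRB1 (0.608-fold, adjusted p = 0.00168), with adjusted p = 0.0451 without nucARRB1 replicate 1. The change of PSME4 in wtARRB1 was -0.45 ± 0.13 (adjusted p = 0.0487) and that of PSME3 was -0.41 ± 0.15 (adjusted p = 0.139). The PSMF1 probe lay near background (mean 6.12) and gave no call.

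Among the assembly chaperones PSMG1 fell in both ARRB1 groups. PSMG1 and PSMG2 form a heterodimer that seeds the alpha ring, and PSMG3 acts at the same stage. PSMG1 stood at 10.13 and 9.98 in nucARRB1 and 9.89 and 10.32 in wtARRB1, against 10.93, 10.87 and 10.79 in GFP and 10.46, 10.62 and 10.73 in parental cells. It fell by 0.81 ± 0.13 in nucARRB1 (0.570-fold, adjusted p = 0.000590) and by 0.76 ± 0.13 in wtARRB1 (0.592-fold, adjusted p = 0.00136), a call lost in wtARRB1 without wtARRB1 replicate 1 (adjusted p = 0.0385). A dimmer probe of PSMG1 changed by -0.63 ± 0.15 in nucARRB1 and missed the threshold (limma, adjusted p = 0.0124). It was called lower with both ARRB1 groups set against both control groups (-0.65 ± 0.11, adjusted p = 0.000419). PSMG2, the partner of PSMG1, changed by 0.04 ± 0.13 and -0.11 ± 0.13 and was not called. PSMG3 stood at 8.04 and 8.27 in nucARRB1 and 8.40 and 8.60 in wtARRB1, against 8.85, 8.76 and 8.66 in GFP and 8.87, 8.47 and 8.50 in parental cells. It fell by 0.60 ± 0.13 in nucARRB1 (adjusted p = 0.00743) and changed by -0.26 ± 0.13 in wtARRB1 (adjusted p = 0.390). The nucARRB1 call of PSMG3 was lost without nucARRB1 replicate 1, any GFP array or parental replicate 3 (adjusted p up to 0.108).

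The chaperones of the 19S base split. PSMD10 (gankyrin), which also binds RB1 and MDM2, stood at 11.68 and 11.53 in nucARRB1 and 11.33 and 11.41 in wtARRB1, against 10.71, 11.13 and 11.17 in GFP and 11.21, 11.11 and 11.19 in parental cells. It lay higher on every ARRB1 array than on every control array, as did 6.29% of all genes. PSMD10 rose by 0.60 ± 0.13 in nucARRB1 (1.52-fold, adjusted p = 0.00588), a call lost with median scaling and without either nucARRB1 array, GFP replicate 1 or parental replicate 2 or 3 (adjusted p up to 0.0714), and its change in wtARRB1 was 0.37 ± 0.13 (adjusted p = 0.123). Of its 2 dimmer probes 1 was also called higher in nucARRB1 (0.62 ± 0.13, adjusted p = 0.00383). In GFP against parental cells that probe changed by -0.37 ± 0.11 and was not called (limma, adjusted p = 0.332). PSMD5 and PSMD9 changed by -0.30 and -0.35 in nucARRB1 and were not called.

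In wtARRB1 cells 4 of the 43 genes were lower than in GFP cells (PSMB10, PSMC3, PSMD2 and PSMG1) and none was higher (limma; at an unadjusted p under 0.05, 12 were lower and 5 higher). The background was 4.7% of all genes lower and 4.26% higher, and among bright genes 14.1% were lower. At the unadjusted p 2562 of all 18664 genes were lower and 2383 higher. The comparisons of nucARRB1 and wtARRB1 share the GFP arrays, so that a high GFP value pulls both down. Against parental cells, which do not share them, PSMD2 changed by -1.07 ± 0.11 in nucARRB1 (adjusted p = 2.53e-05) and -0.81 ± 0.11 in wtARRB1 (adjusted p = 0.000352), and PSMD1 by -0.89 ± 0.12 (adjusted p = 0.000179) and -0.71 ± 0.12 (adjusted p = 0.00151). PSMC3 changed by -0.82 ± 0.12 (adjusted p = 0.000395) and -0.53 ± 0.12 (adjusted p = 0.0118) against parental cells, and PSMG1 by -0.55 ± 0.13 (adjusted p = 0.0165) and -0.50 ± 0.13 (adjusted p = 0.0384). PSMB10 changed by -0.38 ± 0.11 (adjusted p = 0.0591) and -0.42 ± 0.11 (adjusted p = 0.0408) against parental cells and was not called. Without wtARRB1 replicate 1 the count of lower genes in wtARRB1 was 2.

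The control groups did not differ by any called proteasome gene. Of the 43 genes 0 were higher and 0 lower in GFP cells than in parental cells (limma; at an unadjusted p under 0.05, 4 higher and 3 lower), with a background of 0.00536% higher and 0.0429% lower over all genes. At the unadjusted p 958 of all 18664 genes were higher and 914 lower. The largest differences among the 43 were those of PSMD3 (0.49 ± 0.17, adjusted p = 0.449), PSMA3 (-0.46 ± 0.13, adjusted p = 0.260) and PSMC3 (0.41 ± 0.10, adjusted p = 0.192). For PSMA3 the GFP arrays thus lay below those of parental cells.

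Between the ARRB1 groups 0 of the 43 genes were higher and 0 lower in nucARRB1 than in wtARRB1 (limma; at an unadjusted p under 0.05, 1 higher and 4 lower). The background was 0.0482% higher and 0.0161% lower. At the unadjusted p 917 of all 18664 genes were higher and 962 lower. The changes called in nucARRB1 alone were therefore not shown to be absent from wtARRB1. Of the 43 genes 29 had a negative difference, with a median of -0.07, and with median scaling 20 did, with a median of 0.0099. The largest differences were 0.80 ± 0.21 for PSMB8 and -0.40 ± 0.13 for PSMD14 (adjusted p = 0.427).

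With both ARRB1 groups set against both control groups 12 genes were lower and 2 higher, beside 7.83% and 6.91% of all genes, and 22% and 17.8% of the bright genes. The 12 were PSMB2, PSMB6, PSMB10, PSMC1, PSMC3, PSMD1, PSMD2, PSMD4, PSME2, PSME3, PSME4 and PSMG1, and the 2 were PSMD8 and PSMD10. PSMD2 fell by 1.09 ± 0.08 (0.471-fold, adjusted p = 1.55e-07), PSMC3 by 0.88 ± 0.08 (adjusted p = 2.16e-06), PSMD1 by 0.70 ± 0.08 (adjusted p = 1.76e-05) and PSMG1 by 0.65 ± 0.09 (adjusted p = 0.000115). A dimmer probe of PSMD12 was also called lower (-0.57 ± 0.10, adjusted p = 0.000849), unlike the bright probe that stands for it (0.06 ± 0.13). Without nucARRB1 replicate 1 the count of lower genes was 7. The calls of PSMB6, PSMD10, PSME2 and PSME3 were each lost without any 1 of 6 or 7 arrays (adjusted p up to 0.0317), nucARRB1 replicate 1 among them.

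Proteins that work with the proteasome but lie outside the PSM symbols were measured for 22 of 23 listed genes. Of these 5 were lower and 1 higher in nucARRB1 than in GFP, and 3 were lower and 2 higher in wtARRB1. Of the bright genes 18% were lower and 13.3% higher in nucARRB1, and 14.1% lower and 11.6% higher in wtARRB1, and of all genes 5.89%, 4.97%, 4.7% and 4.26% in the same order, so that these counts are not a result about the list. ADRM1 (RPN13), the ubiquitin receptor docked on PSMD2, stood at 9.63 and 9.86 in nucARRB1 and 9.92 and 9.85 in wtARRB1, against 10.88, 10.63 and 10.55 in GFP and 10.13, 10.50 and 10.60 in parental cells. It fell by 0.94 ± 0.14 (adjusted p = 0.000343) and 0.80 ± 0.14 (adjusted p = 0.00168). UCHL5, the deubiquitylase that ADRM1 recruits, fell by 0.67 ± 0.14 in nucARRB1 (adjusted p = 0.00359), as did the shuttle proteins UBQLN4 and RAD23B (by 0.66 and 0.48) and the proteasome-bound ligase UBE3C (by 0.53). ZFAND2A, an arsenite-inducible protein that binds the 19S cap, rose by 1.05 ± 0.12 in nucARRB1 (adjusted p = 2.00e-05) and 0.96 ± 0.12 in wtARRB1 (adjusted p = 6.93e-05). POMP, which matures the core, and SEM1, a small 19S subunit, changed by 0.05 and 0.24 in nucARRB1 and were not called.

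Upstream of the proteasome, UBA1, the main ubiquitin-activating enzyme, fell by 0.71 ± 0.13 in nucARRB1 (adjusted p = 0.00195) and was the 1 called of 3 ubiquitin and E1 genes measured. Of 10 transcription factors linked to the proteasome genes 1 was higher in nucARRB1 and 0 in wtARRB1 (limma; at an unadjusted p under 0.05, 1 was higher and 1 lower in wtARRB1). The one called was FOXO4, which is linked to PSMD11 expression in human embryonic stem cells (0.86 ± 0.18, adjusted p = 0.00378). Of all genes 4.97% were higher and 5.89% lower in nucARRB1, and of the bright genes 13.3% and 18%. The counts of these short lists are therefore not a result about them. NFE2L1, which raises proteasome gene transcription when the proteasome is inhibited, stood at 8.99 and 9.83 in nucARRB1 and 9.75 and 9.09 in wtARRB1, against 8.94, 8.74 and 8.65 in GFP and 8.95, 8.80 and 8.70 in parental cells. All ARRB1 arrays lay above the control arrays but spread more widely than these, and the gene was called only with both ARRB1 groups against both control groups (0.62 ± 0.15, adjusted p = 0.00942). NFE2L2 changed by -0.07 and 0.10 and was not called.

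Of the 3 genes given apart, PSMC3IP, a partner of recombinases in meiosis, stood at 6.48 and 6.86 in nucARRB1 and 6.76 and 7.65 in wtARRB1, against 8.32, 8.23 and 8.43 in GFP and 7.94, 8.32 and 8.11 in parental cells. It fell by 1.66 ± 0.20 in nucARRB1 (0.317-fold, adjusted p = 3.90e-05) and by 1.12 ± 0.20 in wtARRB1 (0.459-fold, adjusted p = 0.00146). PSME3IP1 and PSMD6-AS2 changed by -0.18 and 0.05 in nucARRB1 and were not called. The testis subunit PSMA8 and the thymus subunit PSMB11 lay near or below the array median (means 6.25 and 5.92) and gave no call.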

How the data were processed

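Total RNA of C4-2 cells was hybridised as biotinylated cRNA. The authors processed the arrays with beadarray and deposited log2 values per probe before and after quantile normalisation; background correction is not given in the sources used here. Quantile normalisation was recomputed from the first table, which differed from the deposited log2 values by at most 0.0232. All 48801 probes were fitted with limma 3.58.1 (R 4.3.3) as 4 group means over 10 arrays (6 residual degrees of freedom) and adjusted by Benjamini-Hochberg; calls were two-sided at a false discovery rate of 1%. Where a gene had several probes, the brightest on average stood for it. Of the probes 27576 carried 1 symbol, updated through Entrez IDs to RefSeq symbols, and 13 several. The annotation used here did not name PSMA7, PSMC5, PSMD7, PSMD13 or PSMG4. Given in full were called members (at most 12 per comparison by size of change, which left PSMD4 outside), the catalytic pairs and PSME1. Members and lists were chosen with earlier results of these data known; the limit of 9 for bright genes was chosen after seeing the values. The scripts were tested on simulated data. Alternatives were the deposited values, median scaling, mean of probes, a brightness filter, an intensity trend, fewer arrays, a 5% rate, a replicate block, parental controls and leaving out each array. The number of arrays limits the precision.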

Additional observations from a re-analysis of the deposited data

How the results depend on the processing

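No change of a named gene turned its direction past the threshold under any alternative, and the deposited values changed no call. For nucARRB1 against GFP the count of higher genes (2) was 0 with median scaling, with an intensity trend and with the replicate block, and 1 with the mean over probes, with only the arrays compared and with parental controls. The count of lower genes there (12) was 6 with the block and 6 with parental controls. For wtARRB1 (0 higher, 4 lower) a 5% rate gave 2 and 7, and parental controls gave 2 lower. With both ARRB1 groups against both control groups the higher count (2) was 0 with median scaling, 1 with the mean over probes, with the trend and with the block, and 4 at a 5% rate, and the lower count (12) was 7 with the block. The median log2 change of the 27 core and cap subunits was -0.15 in nucARRB1, -0.07 in wtARRB1, -0.07 for nucARRB1 against wtARRB1 and -0.14 for both groups; median scaling gave -0.27, -0.30, 0.0099 and -0.30, and the block gave -0.0938 in nucARRB1. Under median scaling the median over the 3202 bright genes also moved, to -0.20 in nucARRB1 and -0.26 in wtARRB1. The cause was not tested.

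Leaving out each array in turn gave 0 to 2 higher and 4 to 12 lower genes in nucARRB1, 2 to 5 lower in wtARRB1, and 1 to 3 higher and 7 to 13 lower for both groups. The subunit median ran over -0.21 to -0.10 in nucARRB1, -0.14 to -0.0482 in wtARRB1 and -0.18 to -0.0611 for nucARRB1 against wtARRB1. PSMC3 and PSMD2 kept their calls against GFP in all these refits and settings. PSMB10 minus PSMB7 ran over -0.45 to -0.35 (exact p up to 0.0238, adjusted p up to 0.0714), PSMB9 minus PSMB6 over 0.35 to 0.49 and PSMB8 minus PSMB5 over 0.43 to 0.83. PSMB9 minus PSMB6 was 0.45 with the mean over probes (exact adjusted p = 0.0286). PSMB10 minus PSMB7 was -0.56 with GFP arrays as the only controls (exact p = 0.0571, the smallest possible) and -0.42 with the replicate block (exact p = 0.0556, the smallest possible).

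The replicate numbers did not pair the arrays: deviations of same-numbered arrays correlated at -0.13 to 0.08 over 13 pairs, none above 0.1.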
